A study of Homo sapiens with 16 samples.

Results

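The genes described here encode the nuclear subunits of the 5 complexes of the respiratory chain and of ATP synthesis. They were chosen by symbol, as the rows whose name is that of a subunit of complex I (NDUFA, NDUFB, NDUFC, NDUFS and NDUFV), complex II (SDHA to SDHD), complex III (UQCR), complex IV (COX) or complex V (ATP5), and 76 of the 62714 genes in the files met this rule. The rule uses symbols and no measured value. Complex I has 36 of these genes, complex II 4, complex III 8, complex IV 11 with NDUFA4 counted here, and complex V 17. All 76 had at least 10 counts in every library, the lowest count being 21, so that every member was tested in every comparison and none was lost to a filter on low values.

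Complex I (NADH dehydrogenase) and complex II (succinate dehydrogenase) pass electrons from nutrients to ubiquinone, complex III passes them on to cytochrome c, and complex IV (cytochrome c oxidase) passes them to oxygen. Complexes I, III and IV pump protons across the inner mitochondrial membrane, and complex V (ATP synthase) uses the return flow of protons to make ATP. Most subunits are encoded in the nucleus and a small core set by mitochondrial DNA, so that the complexes need both genomes. B cells are known to raise their oxidative phosphorylation when they are activated.

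The data are RNA-seq libraries of ribosomal RNA depleted RNA of 4 human lymphoma lines of B-cell origin, all established. In each of them, either CREBBP, which encodes a histone acetyltransferase that acts as a transcriptional coactivator, or the AAVS site, a control locus, was targeted with Cas9 and a pool of guides from the lentiviral vector pLENTI-CRISPRv.2. Every library thus comes from cells that carry Cas9 and guides, and from a targeted pool rather than a clone. The pools, labelled AAVS -/- and CREBBP -/-, were cultured for 4 h without (baseline) or with 10 ng/ml of the cytokine IL4, so that both the AAVS and the CREBBP pools have a baseline and an IL4 group, each of 4 libraries with 1 per line. SU-DHL4 is line 1 here and DOHH2 line 4. OCI-LY7 and SU-DHL10 are named in conflicting order by the labels, and their libraries are called line 2 and line 3. The values are estimated counts per gene, given as CPM, in which each count is scaled to a common library total, and the lines serve as the replicates of a group.

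Library totals lay between 19649735 and 61981976 counts. B-cell markers were present in every library (8 of 8 genes, summed level 2902 to 5488 CPM). CREBBP itself reached 269, 205, 359.6 and 246 CPM in lines 1 to 4 of AAVS baseline, 315, 190.5, 315 and 379 in AAVS IL4, 278, 191, 187 and 270.3 in CREBBP baseline and 214, 69.9, 245 and 218 in CREBBP IL4. Its transcript was thus lower in CREBBP than in AAVS pools in 4 of 4 lines with IL4 and in 2 of 4 at baseline, and a read count over the whole gene does not measure how often the locus was cut. The authors report that immunoblots of the targeted pools showed loss of the CREBBP protein. The AAVS IL4 libraries stood apart, with 9 transcripts (IGHM, IGHD, VIM, CD44 and others, a list picked because it was known to stand apart in these samples) summing to 1124 to 6222 CPM against 6.59 to 17.6 CPM in the other libraries. The 13 T-cell markers summed to 121 to 261 CPM there against 89.9 to 182 CPM elsewhere, and none of the 13 was at 0 in all libraries. These sums overlapped, but gene by gene the shift was large. The fitted log2 fold change for IL4 in AAVS pools was positive for 12 of the 13, with a median of 4.87. Markers of monocytes and macrophages reached 5.28 to 22.4 CPM in AAVS IL4 against 0.398 to 3.47 CPM, those of plasma cells 129 to 771 against 17.8 to 62.8 CPM, and those of fibroblasts 1.03 to 17.6 against 0.124 to 34.0 CPM. MARCO was the only listed marker at 0 in all libraries. A pair of libraries was rich in short transcripts. Coding genes under 1000 bases took 15.9% of the nuclear protein-coding counts in CREBBP IL4 of line 2 and 14.8% in CREBBP baseline of line 3, against 6.56 to 9.24% in the other libraries, and the small RNAs RN7SK, RN7SL1 and RN7SL2 took 18.1% and 13.3% of their counts against 4.41 to 10.7%. Pairs of libraries outside AAVS IL4 were compared by the genes that reached 10 CPM in 1 and were under 0.5 CPM in the other. These numbered 0 to 8 within a line, 1 to 17 between lines 1, 3 and 4, and 149 to 271 between line 2 and another line. The range between lines 1, 3 and 4 overlapped that within a line, and whether these lines are distinct was not tested. If they are not, the 4 lines are fewer than 4 independent replicates, which bears on every p-value and count of lines below.

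The subunit genes were expressed at very different levels. To set genes against each other, the CPM was divided by the length of the Ensembl canonical transcript, and the median over 16 libraries of this level is given here as CPM per kilobase. The median gene reached 52.7 CPM per kilobase, and complex IV had the highest median over its genes (140.2), followed by complex V (78.2), complex II (44.4), complex III (37.4) and complex I (36.7). The highest level of all was that of ATP5F1B, the catalytic beta subunit of ATP synthase, with 368 CPM per kilobase, and the lowest was that of NDUFV3, an accessory subunit of complex I, with 3.06. Within complex I, NDUFA13 led with 258 CPM per kilobase. Within complex III, UQCRH reached 111 and UQCRB 15.2 CPM per kilobase, and within complex IV, COX6A1 reached 237 and COX7B 17.3. ATP5F1E, the epsilon subunit, was the lowest gene of complex V with 17.2 CPM per kilobase. A ratio of highest to lowest can only grow as genes are added. Complex II, with 4 genes against 8 to 36 in the other complexes, had the smallest spread. Its flavoprotein SDHA, iron-sulfur protein SDHB and membrane anchors SDHC and SDHD reached 45.5, 44.2, 42.2 and 44.5 CPM per kilobase, a ratio of highest to lowest of 1.08, against 84.3 in complex I, 7.27 in complex III, 13.7 in complex IV and 21.4 in complex V. The ranges of these 4 genes over the libraries overlap, so that their order is not resolved. Across the 16 libraries, the highest CPM of a member was at least 4 times its lowest for 32 members, 2 to 4 times for 40 and under 2 times for 4, with a median of 3.75 times.

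**Figure D1:**
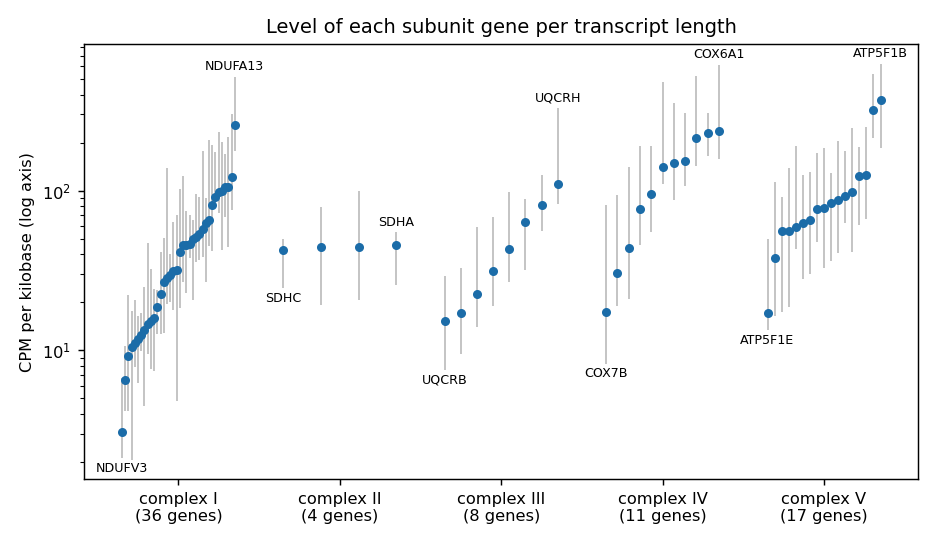
Level of each of the 76 subunit genes in CPM per kilobase of canonical transcript (log axis), by complex; points are medians over the 16 libraries and grey lines run from the lowest to the highest library. The genes with the highest and lowest median in each complex are named, from NDUFV3 at 3.06 to ATP5F1B at 368 CPM per kilobase.

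The order of the genes rests on the length used. With the length of all exons joined in place of the canonical transcript, the rank correlation of the levels across genes was 0.636, and NDUFA13 moved from rank 3 to rank 8. Complexes IV and V still had the highest medians (37.2 and 29.9 CPM per kilobase), but complex III (28.0) was then above complex II (19.9) and complex I (11.3). SDHA, SDHB, SDHC and SDHD were at 14.1, 18.4, 29.0 and 21.4 by that length, so that SDHA was lowest in place of highest and the ratio of highest to lowest was 2.06, against 4.33 to 28.1 in the other complexes. Some members share sequence with other genes. SDHA and its pseudogenes were counted separately, with the pseudogenes taking 29.5% of their combined counts, followed by UQCRH with 7.29%, ATP5PD with 3.63%, NDUFV2 with 2.67%, UQCRFS1 with 1.65% and NDUFB4 with 1.24%, and the counts of these 6 genes are uncertain to that extent. A further limit is that 20 members overlap exons of another gene expressed at more than 10% of their own level, NDUFB2 with BRAF and NDUFC1 with NAA15 among them, and the use of strand in counting is not given in the sources used here.

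The ring of complex V that turns with the proton flow is built from 1 protein, the c subunit, that ATP5MC1, ATP5MC2 and ATP5MC3 all encode. By canonical length, the transcripts of ATP5MC2 made up 73.0 ± 7.92% (SD, n = 16 libraries) of the summed level of the 3 genes, ATP5MC3 14.3 ± 2.94% and ATP5MC1 12.7 ± 5.39%. These shares rest on the length used, and with all exons joined, a choice made after seeing the data, they were 48.9 ± 8.82%, 38.6 ± 5.01% and 12.6 ± 4.65%. Shares of transcript do not measure the protein. By canonical length the share of ATP5MC3 was 12.0 ± 1.73% (SD, n = 4) in AAVS baseline and 12.0 ± 1.38% in AAVS IL4, against 16.6 ± 2.60% in CREBBP baseline and 16.5 ± 1.95% in CREBBP IL4. With IL4 the AAVS libraries lay between 10.8 and 13.4% and the CREBBP libraries between 14.8 and 18.6%, so that the groups did not overlap, nor did they with all exons joined (32.3 to 37.0% and 39.4 to 45.7%), whereas at baseline they ranged from 10.7 to 14.4% and from 14.1 to 20.2% and overlapped. The share of ATP5MC1 varied more, from 5.06 to 22.7%, both in AAVS baseline, where line 2 had the highest value.

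The tissue-restricted isoforms of these subunits were near absent for the most part. Of 7 such genes (COX4I2, COX6A2, COX6B2, COX7A1, COX7B2, COX8C and NDUFA4L2), COX4I2, COX6A2 and COX7B2 had no count in any library and 5 of the 7 stayed under 0.5 CPM in all 16 libraries.

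The promoters of the subunit genes were searched for short words that known regulators of such genes bind. The RefSeq table of promoters on GRCh38.p14 holds 63 of the 76 members. The 250 bases before each start were searched on both strands for GCGCATGCG, the core of the palindrome bound by NRF1, for its inner part GCATGCG, for CCGGAAG, bound by GABPA and other ETS factors, and for AAGATGGCG, bound by YY1. NRF1 and GABPA are known as regulators of nuclear genes for mitochondrial proteins. GCGCATGCG was in 9 of 63 promoters (14.3%) against 1.78% of the 27305 promoters in the table, its inner part, which lies within the longer word, in 12 (19.0%) against 3.57%, CCGGAAG in 17 (27.0%) against 8.82% and AAGATGGCG in 1 (1.59%) against 0.641%. Any of these words was found in 24 (38.1%) against 12.3%. When 50 bases after the start were added to the window, AAGATGGCG was in 8 of 63 (12.7%) against 1.85%, GCGCATGCG in 10 (15.9%) against 2.1%, its inner part in 13 (20.6%) against 4.13%, CCGGAAG in 20 (31.7%) against 10.7% and any word in 31 (49.2%) against 15.3%. A match is a description of the letters, not a binding site.

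The first promoters printed hold the long NRF1 word and belong to complexes II, IV and V: chr10:7787927-7788176 (plus strand) for ATP5F1C, the gamma subunit that turns within ATP synthase, chr21:25735055-25735304 (minus strand) for ATP5PF, a subunit of its stalk, chr11:112086623-112086872 (plus strand) for SDHD and chr12:120437863-120438112 (plus strand) for COX6A1. Each is written 5′ to 3′ on the strand of its gene and ends at the base before the start, with matches in capitals and overlapping matches joined.
ATP5F1C: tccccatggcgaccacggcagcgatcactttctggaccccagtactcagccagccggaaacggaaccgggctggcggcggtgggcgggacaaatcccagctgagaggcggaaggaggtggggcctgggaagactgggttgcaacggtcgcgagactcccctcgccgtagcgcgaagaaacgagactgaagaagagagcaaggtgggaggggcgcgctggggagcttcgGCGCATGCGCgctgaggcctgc
ATP5PF: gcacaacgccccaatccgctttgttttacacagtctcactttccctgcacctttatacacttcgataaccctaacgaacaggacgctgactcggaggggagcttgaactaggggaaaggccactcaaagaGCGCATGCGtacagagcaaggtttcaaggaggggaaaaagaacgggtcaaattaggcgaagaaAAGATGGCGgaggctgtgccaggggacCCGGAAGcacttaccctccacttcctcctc
SDHD: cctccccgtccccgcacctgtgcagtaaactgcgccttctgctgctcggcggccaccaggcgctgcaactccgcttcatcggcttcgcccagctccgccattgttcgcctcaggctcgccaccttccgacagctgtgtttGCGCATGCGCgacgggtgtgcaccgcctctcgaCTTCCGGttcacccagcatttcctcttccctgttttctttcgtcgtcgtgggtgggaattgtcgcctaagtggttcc
COX6A1: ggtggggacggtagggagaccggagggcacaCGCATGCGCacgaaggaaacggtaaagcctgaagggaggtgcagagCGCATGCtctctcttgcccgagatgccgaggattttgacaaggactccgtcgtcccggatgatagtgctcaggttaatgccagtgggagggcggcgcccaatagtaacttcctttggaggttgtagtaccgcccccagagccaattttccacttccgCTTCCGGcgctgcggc
In ATP5F1C the word starts 22 bases before the transcription start, and in SDHD 110 bases before it, with CCGGAAG on the opposite strand 77 bases before the start. ATP5PF holds the NRF1, YY1 and ETS words at 120, 57 and 30 bases before the start. COX6A1 holds the long NRF1 word at 219, a second inner word at 173 and the ETS word at 16 bases before the start.

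The second set belongs to 4 of the 5 members that passed the test between CREBBP and AAVS pools with IL4, described further on: chr9:32573160-32573409 (minus strand) for NDUFB6, chr17:48892537-48892786 (plus strand) for ATP5MC1, chr7:140696458-140696707 (plus strand) for NDUFB2 and chr12:95003698-95003947 (minus strand) for NDUFA12.
NDUFB6: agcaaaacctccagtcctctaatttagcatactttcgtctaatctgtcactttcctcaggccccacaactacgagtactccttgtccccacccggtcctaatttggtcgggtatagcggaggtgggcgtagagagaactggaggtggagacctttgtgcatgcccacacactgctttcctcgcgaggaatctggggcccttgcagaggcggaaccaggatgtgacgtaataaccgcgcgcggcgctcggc
ATP5MC1: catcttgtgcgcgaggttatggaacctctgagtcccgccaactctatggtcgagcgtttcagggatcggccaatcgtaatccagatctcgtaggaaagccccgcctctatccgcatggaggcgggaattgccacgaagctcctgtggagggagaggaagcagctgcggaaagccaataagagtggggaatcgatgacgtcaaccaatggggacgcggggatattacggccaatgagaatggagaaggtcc
NDUFB2: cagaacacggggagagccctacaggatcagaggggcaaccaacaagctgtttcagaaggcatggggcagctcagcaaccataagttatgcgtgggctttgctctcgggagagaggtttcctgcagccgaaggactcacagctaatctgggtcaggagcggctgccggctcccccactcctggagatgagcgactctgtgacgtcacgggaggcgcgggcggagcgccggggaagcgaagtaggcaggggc
NDUFA12: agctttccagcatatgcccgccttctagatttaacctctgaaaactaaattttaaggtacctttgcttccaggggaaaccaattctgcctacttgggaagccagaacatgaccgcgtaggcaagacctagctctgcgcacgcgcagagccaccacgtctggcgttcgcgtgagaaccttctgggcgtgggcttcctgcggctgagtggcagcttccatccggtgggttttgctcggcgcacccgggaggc
None of these 4 windows holds a searched word, so that no letters are in capitals. In the comparison with IL4, the fitted log2 fold changes had a median of 1.05 over the 24 members with a word and of 0.92 over the 39 members without, and all 63 were above 0.

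The first comparison asked how the subunit genes responded to IL4 in cells with the control locus targeted. The members were mostly lower after 4 h of IL4 in AAVS pools, but none passed the test. The fitted log2 fold change was negative for 73 of 76 members with a median of -0.29, against 0.014 over all 20310 genes tested. An adjusted p under 0.05 by edgeR's quasi-likelihood test was reached by 0 members, against 2.4% of all genes (488 genes, of which 485 were higher). With DESeq2 0 members were called, and its share of all genes is not given here. An unadjusted p under 0.05 was reached by 2 members, both lower. Of all 20310 genes, 738 were lower and 2519 higher at that threshold. Lower values in 4 of 4 lines were seen for 19 members, against 13.8% of all genes.

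The largest difference was that of ATP5F1A, the catalytic alpha subunit. It reached 603, 423, 515 and 444 CPM in lines 1 to 4 of AAVS baseline and 425, 319, 210.0 and 368 CPM in AAVS IL4. It was lower with IL4 in each line, but the groups overlapped by 1 library, and its log2 fold change was -0.68 (SE 0.27, adjusted p = 0.288). NDUFB5, an accessory subunit of complex I, had a log2 fold change of -0.60 (SE 0.21, adjusted p = 0.255), and ATP5PF one of -0.51 (SE 0.24, adjusted p = 0.351). By complex, the medians were -0.42 for complex V, where all 17 genes were negative, and -0.23 for complex I. By line, the median over members was -0.44, -0.16, -0.85 and 0.050 in lines 1 to 4, so that line 3 had the lowest values and line 4 showed no shift. In the AAVS IL4 libraries the T-cell and plasma cell markers were highest on average, and their part in the members' values was not tested. In bulk RNA, fewer cells of a type and less RNA per cell cannot be told apart.

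In the CREBBP pools, no member passed the test for IL4. The log2 fold change was positive for 60 of 76 members with a median of 0.091 against -0.038 over 18282 genes, 0 members had an adjusted p under 0.05 and 0 an unadjusted p under 0.05, and of all genes 0.0% were called by edgeR, with 502 at an unadjusted p under 0.05. With DESeq2 0 members were called, and its share of all genes is not given here. The lines went in opposite directions. The median over members was -0.057 in line 1, 1.31 in line 2, -0.74 in line 3 and 0.0078 in line 4. The values of lines 2 and 3 rest on the pair of libraries rich in short transcripts, CREBBP IL4 of line 2 and CREBBP baseline of line 3. Without line 2 the median was -0.26.

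ATP5F1C was the only member with higher values in 4 of 4 lines after TMM scaling. It reached 71.0, 115, 107 and 122 CPM in lines 1 to 4 of CREBBP baseline and 76.9, 225, 129 and 119.8 in CREBBP IL4. On the CPM scale line 4 was not higher, and line 2 had by far the largest gap. The log2 fold change was 0.37 (SE 0.26, adjusted p = 0.924). NDUFV1, the flavoprotein of complex I that takes up NADH, was the only member lower in 4 of 4 lines, with a log2 fold change of -0.16 (SE 0.14, adjusted p = 0.924).

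CREBBP and AAVS pools were then compared at baseline, which asks how the subunit genes stand in cells with CREBBP targeted. The members were mostly higher in CREBBP pools, with no member past the adjusted threshold. The fitted log2 fold change was positive for 75 of 76 members with a median of 0.54, against -0.025 over all 18936 genes. By edgeR's test 0 members and 0.0% of all genes had an adjusted p under 0.05, and DESeq2 called 5 members (ATP5MC3, COX5A, COX8A, NDUFV1 and UQCRC1, named here after this result was seen), all higher, against 1.36% of all genes called higher by it. An unadjusted p under 0.05 with a higher value was found for 34 members against 6.34% of all genes, and higher values in 4 of 4 lines for 26 members against 8.77%.

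The medians by complex were 0.53 for complex I, 0.42 for complex II, 0.55 for complex III, 0.58 for complex IV and 0.55 for complex V. The lone negative member was NDUFA10, an accessory subunit of complex I, with -0.079 (SE 0.18, adjusted p = 0.882). SDHC, a membrane anchor of complex II, had a log2 fold change of 0.0089 (SE 0.18, adjusted p = 0.989), and its sign turned with the scaling and the filter.

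The groups did not overlap for 3 members, against 0.602% of all genes. UQCRC1, a core protein of complex III, reached 70.1, 101, 79.7 and 69.4 CPM in lines 1 to 4 of AAVS baseline and 125, 112, 112 and 105 in CREBBP baseline. All 4 CREBBP libraries were above the highest AAVS library, and the log2 fold change was 0.62 (SE 0.19, adjusted p = 0.270). COX5A, a subunit of complex IV, was at 89.3, 116, 101 and 76.8 CPM in AAVS baseline and at 162, 121, 163 and 126 in CREBBP baseline, with lines 1 and 3 highest. Its log2 fold change was 0.68 (SE 0.20, adjusted p = 0.252). UQCRH, the hinge protein of complex III, was at 53.6, 58.1, 47.7 and 56.6 and 58.9, 62.5, 115 and 74.0 CPM, with the largest gap in line 3.

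The members that the rule on named genes picked, as those with the largest positive change and the same sign in 4 lines, were NDUFA1, NDUFS5 and ATP5MC3. NDUFS5, an accessory subunit of complex I, was at 9.87, 20.1, 10.4 and 10.6 CPM in AAVS baseline and 13.5, 22.7, 28.6 and 17.2 in CREBBP baseline. It was higher in the CREBBP pool of each line while the groups overlapped, with a log2 fold change of 0.79 (SE 0.26, adjusted p = 0.287). NDUFA1, needed for the membrane arm of complex I, had 0.80 (SE 0.33, adjusted p = 0.357) and ATP5MC3 0.77 (SE 0.23, adjusted p = 0.251). Among catalytic subunits, the log2 fold change was 0.63 (SE 0.19, adjusted p = 0.252) for NDUFV1, 0.49 (SE 0.20, adjusted p = 0.363) for SDHA and 0.55 (SE 0.22, adjusted p = 0.347) for ATP5F1B. ATP5MC2 had one of 0.12 (SE 0.21, adjusted p = 0.840).

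By line, the median over members was 0.32 in line 1, -0.034 in line 2, 0.98 in line 3 and 0.61 in line 4, so that line 2 showed no shift and line 3, with its library rich in short transcripts, the largest. Without line 3 the median over members was 0.29 and 0 members passed, and without line 2 it was 0.73 and 9 members passed as higher (ATP5MC1, ATP5MC3, COX5A, NDUFA6, NDUFB2, NDUFB3, NDUFB7, NDUFS8 and UQCRQ), against 1.59% of all genes in that fit.

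With IL4, the members were mostly higher in CREBBP than in AAVS pools, and this was the only condition comparison in which any passed. The fitted log2 fold change was positive for 76 of 76 members, from 0.046 for NDUFA10 to 1.65 for NDUFB6, with a median of 0.98 against -0.053 over all 19581 genes tested. It was positive for 74 members with upper-quartile factors and for 75 with a minimum of 10 counts in all libraries, without line 2 or without line 4. In CPM, before TMM scaling, NDUFA10 and NDUFV3 had lower means in CREBBP IL4 (81.0 and 17.5) than in AAVS IL4 (93.7 and 18.8). NDUFB6, ATP5MC1, ATP5MC3, NDUFB2 and NDUFA12 rose, and 0 members fell, by edgeR's quasi-likelihood test at an adjusted p under 0.05. These 5 of 76 compare with 0.965% of all genes called higher. An unadjusted p under 0.05 with a higher value was found for 60 members against 10.8% of all genes, and higher values in 4 of 4 lines for 62 members against 15.1%. The comparison shares its AAVS IL4 libraries with the IL4 comparison in AAVS pools. The picked transcripts that stood apart summed to 1124 to 6222 CPM in these libraries, against 6.81 to 15.1 CPM in CREBBP IL4. Every AAVS IL4 library and no CREBBP IL4 library stood apart in this way, so that this trait and the targeting coincide here. The part of either in the members' values was not tested.

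NDUFB6, an accessory subunit of the membrane arm of complex I (chr9:32553001-32573184, minus strand on GRCh38), was at 8.78, 11, 5.70 and 11.6 CPM in lines 1 to 4 of AAVS IL4 and at 17.1, 29.4, 21.0 and 27.0 CPM in CREBBP IL4. Every CREBBP library was above every AAVS library, and the log2 fold change was 1.65 (SE 0.30, adjusted p = 0.0331). At baseline it was at 12.0, 11, 9.67 and 13.1 CPM in AAVS and 15.0, 9.14, 30.1 and 28.8 CPM in CREBBP pools, where line 2 was the exception.

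ATP5MC1 (chr17:48892765-48895871, plus strand) was at 24.1, 33.4, 12.0 and 21.3 CPM in AAVS IL4 and 37.8, 69.6, 54.5 and 48.2 CPM in CREBBP IL4. The groups did not overlap, with line 2 high in both, and the log2 fold change was 1.54 (SE 0.31, adjusted p = 0.0410). At baseline line 2 went the other way, from 64.6 CPM in the AAVS to 34.2 CPM in the CREBBP pool.

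ATP5MC3 (chr2:175176258-175181710, minus strand), with the same mature protein as ATP5MC1, was at 115, 134, 72.7 and 128 CPM in AAVS IL4 and 244, 246, 223 and 201 CPM in CREBBP IL4. The lowest CREBBP library was well above the highest AAVS library, and the log2 fold change was 1.34 (SE 0.26, adjusted p = 0.0404). ATP5MC2 was at 205, 179, 135 and 188 and 303, 277, 198 and 168 CPM in the same libraries. Its groups overlapped, line 4 was lower in the CREBBP pool, and its log2 fold change was 0.68 (SE 0.28, adjusted p = 0.190).

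NDUFB2 (chr7:140690777-140722790, plus strand), another accessory subunit of the membrane arm, was at 32.1, 37.6, 19.7 and 33.4 CPM in AAVS IL4 and 66.1, 80.1, 55.2 and 47.8 CPM in CREBBP IL4, with a log2 fold change of 1.31 (SE 0.28, adjusted p = 0.0451). NDUFA12 (chr12:94895297-95003748, minus strand), an accessory subunit of the arm that binds NADH, was at 45.9, 40.7, 50.0 and 46.8 CPM in AAVS IL4 and 89.8, 88.1, 83.8 and 81.4 CPM in CREBBP IL4, with a log2 fold change of 1.18 (SE 0.24, adjusted p = 0.0436). Both had groups that did not overlap, and NDUFA12 had the narrowest spread between lines within each group. In all 5 genes the AAVS IL4 libraries had lower means than AAVS baseline.

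**Figure D2:**
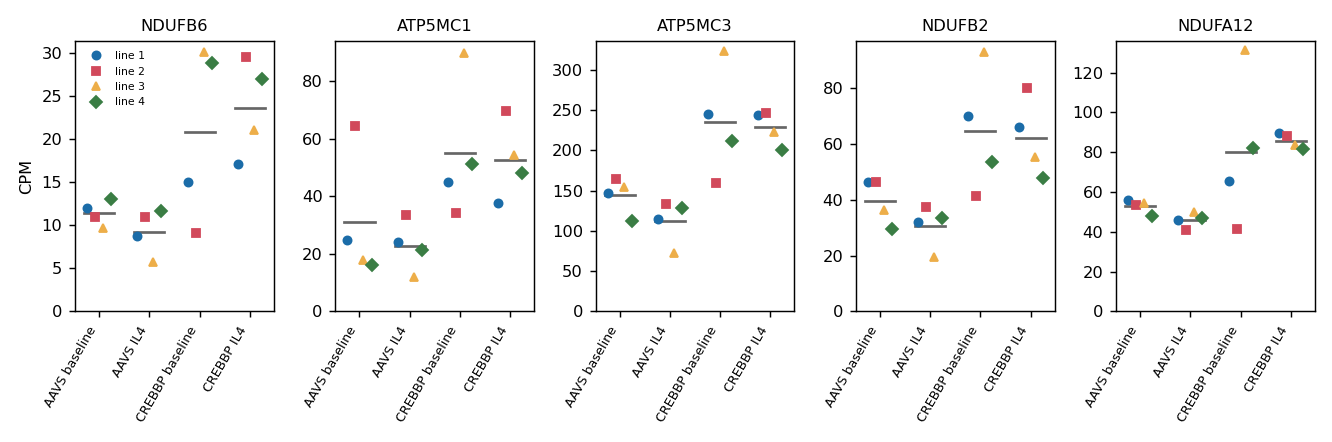
CPM of the 5 members that passed the test between CREBBP and AAVS pools with IL4, in each of the 16 libraries (points, by line) with the mean of each group (grey bars; n = 4 lines). In all 5 genes the 4 CREBBP IL4 libraries sit above the 4 AAVS IL4 libraries, and CREBBP baseline of line 2 sits with the AAVS libraries.

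Groups without overlap were seen for 24 members, all higher in CREBBP IL4, against 1.39% of all genes. Beyond the 5 that passed, they were NDUFA1, NDUFA2, NDUFA9, NDUFB3, NDUFB4, NDUFB8, NDUFB11 and NDUFV2 of complex I, UQCR10, UQCR11, UQCRC2, UQCRH and UQCRQ of complex III, COX6B1 of complex IV, and ATP5F1B, ATP5MF, ATP5MK, ATP5PD and ATP5PF of complex V. ATP5F1B was at 563, 563, 325 and 531 CPM in AAVS IL4 and 864, 644, 1097 and 1012 CPM in CREBBP IL4. Line 3 had both the lowest and the highest of these values, and the log2 fold change was 1.15 (SE 0.30, adjusted p = 0.0753). ATP5F1A, its partner in the catalytic head, had 1.15 (SE 0.30, adjusted p = 0.0711).

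In complex I, all 36 members were positive with a median of 0.88, and 3 passed. Its core subunit NDUFS1 had a log2 fold change of 0.88 (SE 0.24, adjusted p = 0.0799) and NDUFV1 one of 0.77 (SE 0.27, adjusted p = 0.135). NDUFV3 and NDUFA10 were the lowest, with 0.20 (SE 0.24, adjusted p = 0.621) and 0.046 (SE 0.23, adjusted p = 0.914).

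In complex II the median was 0.83, and the 4 genes split into SDHB with 1.08 (SE 0.34, adjusted p = 0.104) and SDHD with 1.03 (SE 0.33, adjusted p = 0.114) against SDHA with 0.62 (SE 0.25, adjusted p = 0.176) and SDHC with 0.63 (SE 0.24, adjusted p = 0.157). The difference between these pairs was not tested. In complex III the median was 1.01, with 0.98 (SE 0.26, adjusted p = 0.0736) for UQCRC1 and 0.79 (SE 0.30, adjusted p = 0.155) for UQCRFS1, the Rieske iron-sulfur protein.

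In complex IV the median was 0.95 and 0 of 11 passed. COX7B had the second largest change of all members with 1.63 (SE 0.47, adjusted p = 0.0913), while NDUFA4 had 1.37 (SE 0.43, adjusted p = 0.106), COX5A 1.09 (SE 0.30, adjusted p = 0.0826), COX5B 0.77 (SE 0.32, adjusted p = 0.180) and COX4I1, the regulatory subunit IV, 0.48 (SE 0.27, adjusted p = 0.301). COX7B was named after its values were seen. In complex V the median was 1.10, the highest of the complexes, and 2 of 17 passed.

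**Figure D3:**
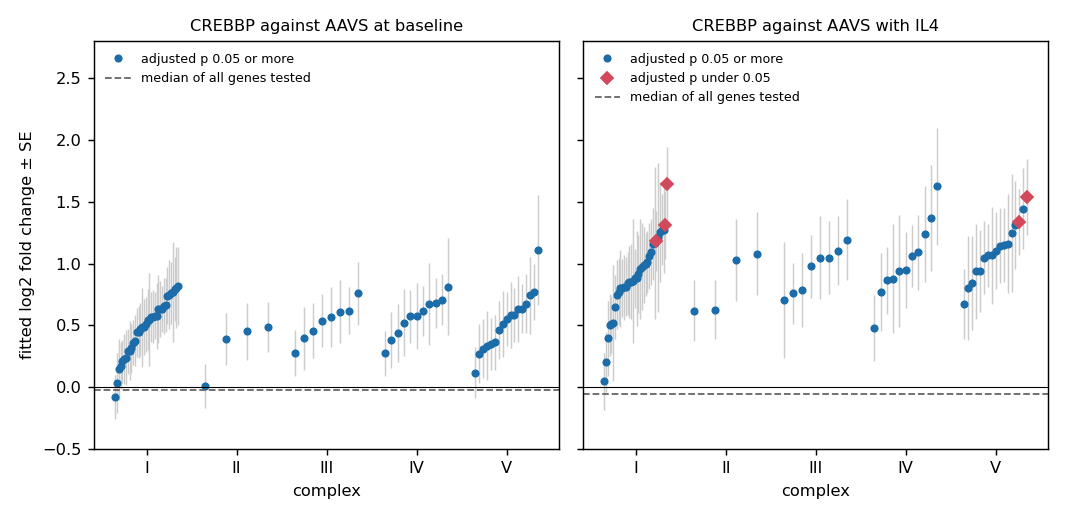
Fitted log2 fold change (CREBBP over AAVS pools) with its SE for each of the 76 members by complex, at baseline (left) and with IL4 (right); red diamonds have an adjusted p under 0.05 and the dashed line is the median of all genes tested. At baseline 75 of 76 members lie above 0 and none passed, and with IL4 all 76 lie above 0 and 5 passed.

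The share of all counts taken by the 76 genes together shows the same data without a fit. It was 0.572, 0.597, 0.580 and 0.492% in lines 1 to 4 of AAVS baseline, 0.486, 0.523, 0.386 and 0.485% in AAVS IL4, 0.732, 0.553, 0.960 and 0.708% in CREBBP baseline and 0.739, 0.897, 0.752 and 0.699% in CREBBP IL4. With IL4 the lowest CREBBP library was above the highest AAVS library, and at baseline line 2 was within the AAVS range. The summed CPM of complex V was 1979.5, 1961, 1189 and 1976 in AAVS IL4 and 2867, 3242, 3332 and 3168 in CREBBP IL4. Line 3 was low among the former. The sums of complexes I, III and IV ranged from 1179 to 1568, from 468 to 552 and from 788 to 860 CPM in AAVS IL4 and from 1835 to 2291, from 645 to 1085 and from 1001 to 1972 CPM in CREBBP IL4, with no overlap. The sums of complex II, from 185 to 301 and from 293 to 379 CPM, overlapped. The 13 subunits encoded by mitochondrial DNA took 2.02 to 3.37% of the counts in AAVS IL4 and 1.48 to 3.29% in CREBBP IL4, and these ranges overlapped.

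**Figure D4:**
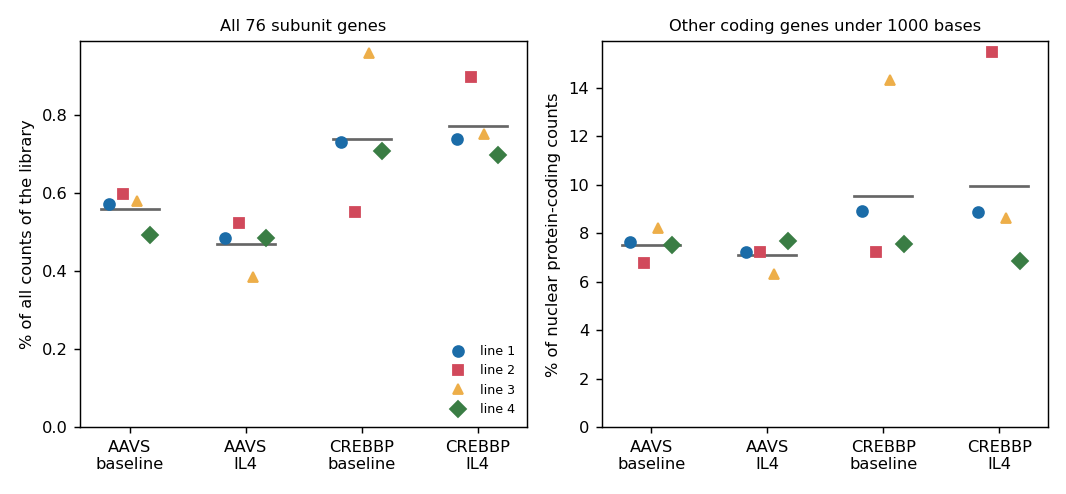
Left, share of all counts taken by the 76 subunit genes in each library; right, share of the nuclear protein-coding counts taken by other coding genes with a canonical transcript under 1000 bases. Points are lines, bars group means (n = 4), and the 2 libraries rich in short transcripts are CREBBP baseline of line 3 and CREBBP IL4 of line 2.

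Other coding genes under 1000 bases had mostly positive fitted changes in the CREBBP pools, and 45 of the 76 members have a canonical transcript under 1000 bases. With members left out, such genes took 7.64, 6.78, 8.23 and 7.51% of nuclear protein-coding counts in lines 1 to 4 of AAVS baseline. They took 8.93, 7.25, 14.3 and 7.58% in CREBBP baseline, 7.24, 7.23, 6.35 and 7.68% in AAVS IL4 and 8.90, 15.5, 8.64 and 6.85% in CREBBP IL4. Line 4 was thus nearly level at baseline and lower with IL4. With IL4 these 45 members had a median log2 fold change of 0.98 against 0.58 over 783 other coding genes of that length, and the 31 longer members 0.98 against 0.074 over 12302 other coding genes. At baseline the medians were 0.57 against 0.30 for the short and 0.45 against -0.011 for the longer genes. For genes of 3000 bases or more, the 10 members had a median of 0.28 at baseline and 0.83 with IL4, against -0.077 over 6861 and -0.023 over 7237 other coding genes. The part of short transcripts in the members' values was not tested.

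The number of members that passed with IL4 depended on the lines and the test. It was 16 without line 2, which holds the library rich in short transcripts, against 4.31% of all genes called higher in that fit, and 0 without line 1, line 3 or line 4 in turn, where 3 pairs remain. The share of all genes called without line 1, line 3 or line 4 is not given here. Without the line as a block 1 passed (NDUFA12), against 0.0868% of all genes called higher. With DESeq2 and with a fit of all 16 libraries 48 passed, which include the 5 in each case, against 7.85% and 8.26% of all genes. The median log2 fold change over members stayed between 0.86 and 1.09 when a line was left out. By line it was 0.75, 1.45, 1.36 and 0.59 in lines 1 to 4.

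**Figure D5:**
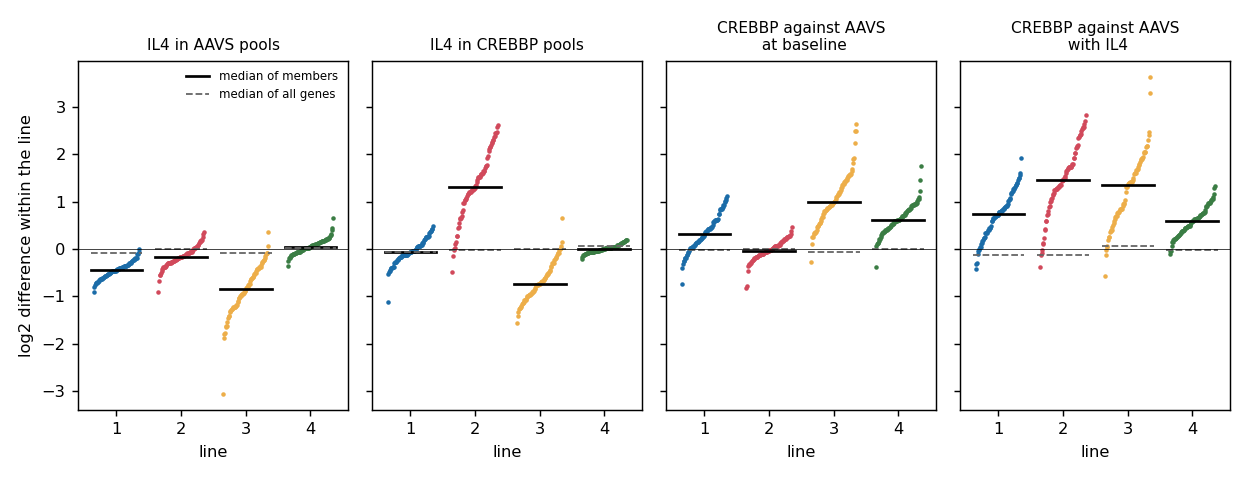
Log2 difference of each of the 76 members (points) within each line for 4 comparisons, sorted within a line; black bars are the medians over members and dashed bars those over all genes. CREBBP over AAVS with IL4 has a member median between 0.59 and 1.45 in the 4 lines, while IL4 in CREBBP pools gives 1.31 in line 2 and -0.74 in line 3.

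The difference between the IL4 responses was tested directly in 1 model of all 16 libraries. The response was more positive, or less negative, in CREBBP than in AAVS pools for 76 of 76 members, with a median difference of 0.49 on the log2 scale against 0.051 over all 21932 genes. This rested on line 2. Without it 41 of 76 were positive with a median of 0.092, and without lines 2 and 3, which hold the libraries rich in short transcripts, 49 with a median of 0.090. By edgeR's test 0 members passed, against 0.638% of all genes (140 genes, 4 of them more positive). With DESeq2 0 members were called, and its share of all genes is not given here. An unadjusted p under 0.05 was reached by 5 members, all more positive. Of all 21932 genes, 1207 were more positive and 1720 more negative at that threshold. The members with the largest difference and the same sign in 4 lines were NDUFB5 with 0.95 (SE 0.37, adjusted p = 0.302), ATP5F1A with 0.84 (SE 0.36, adjusted p = 0.346) and ATP5PB, a subunit of the stalk of complex V, with 0.83 (SE 0.38, adjusted p = 0.384). The difference was large in line 2, with a median of 1.5, and smaller in the others, with 0.38 in line 1, 0.22 in line 3 and -0.036 in line 4.

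Other genes of the pathway were taken from lists. Comparing CREBBP with AAVS pools with IL4, all 14 assembly factors of complex I were positive with a median log2 fold change of 0.63, and NDUFAF1 rose with 1.18 (SE 0.26, adjusted p = 0.0488). Of 38 assembly factors of complexes II to V, 37 were positive with a median of 0.61, and 0 passed. Of 6 subunits and linked factors outside the rule, all were positive with a median of 0.87, and 2 rose. They were NDUFAB1, the mitochondrial acyl carrier protein in complex I, with 1.43 (SE 0.26, adjusted p = 0.0325), and CYCS, cytochrome c, with 1.42 (SE 0.30, adjusted p = 0.0459). Of 12 nuclear regulators, 11 were tested and positive with a median of 0.55, and TFAM, which binds and packs mitochondrial DNA, rose with 1.14 (SE 0.22, adjusted p = 0.0380). Of the 13 mitochondrially encoded subunits, 12 were positive with a median of 0.22 and 0 passed. Of all genes tested, 47.8% were positive and 0.965% were called higher. The lists were tested in the main fit alone, so that it was not seen whether these calls hold with a line left out.

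In the same comparison the 9 transcripts that stood apart in AAVS IL4 were all lower in CREBBP IL4 and 8 of them fell. That list was picked because it was known to stand apart in these samples, so that its counts, here and below, are no test. Of the other lists, 9 of 13 T-cell markers fell, as did 3 of 4 tested plasma cell markers (PRDM1, XBP1 and IRF4). The median log2 fold change was -5.14 over the T-cell and -5.36 over the plasma cell markers, with 1 marker positive in each list. LYZ among 3 tested markers of monocytes and macrophages and COL1A1 among 2 tested markers of fibroblasts also fell. Of all genes, 3.42% were called lower, and 0 of 8 B-cell markers passed. At baseline, where these transcripts were low in both groups, 0 genes of any of the 13 lists passed, and the medians were 0.37 for assembly factors of complex I, 0.21 for those of complexes II to V, 0.37 for subunits and factors outside the rule, 0.30 for the regulators and -0.060 for the mitochondrially encoded subunits. For IL4 in AAVS pools 8 of the 9 picked transcripts rose. Of the other lists, 6 of 13 T-cell markers rose, as did PRDM1 and IRF4 among 5 plasma cell markers. The median log2 fold change was 4.87 over the T-cell and 3.79 over the plasma cell markers, with 12 and 4 markers positive. LYZ rose among 4 tested markers of monocytes and macrophages, and 2.39% of all genes were called higher. From the 6 pathway lists, 0 genes passed in either IL4 response.

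The lines were compared last, each with the mean of the other 3 over the 4 conditions. The 4 libraries of a line come from its 2 pools, so that these p-values measure the spread between libraries of a line, not between lymphomas. An adjusted p under 0.05 for any difference among lines was reached by 12 members, against 40.0% of all genes. Line 4 had 13 members lower, against 12.9% of all genes called lower, and 0 higher, where 3717 of 21932 genes were called higher. Without AAVS baseline 2 of them (NDUFB9 and NDUFC2) passed, against 5.64%. Line 2 had 7 members higher, against 15.5%, and 0 lower, where 3717 of 21932 genes were called lower. In lines 1 and 3, 0 members passed, against 6.57% and 2.7% of all genes, while DESeq2 called 2 and 1, against 14.9% and 7.21%. An unadjusted p under 0.05 was reached by 4 and 9 members, all higher. Of all 21932 genes, 2980 and 2552 were higher and 2516 and 1316 lower at that threshold. The share of members called was thus close to the background for lower values in line 4. It was under the background for higher values in line 4, in both directions in line 2 and over all lines.

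The accessory subunits NDUFB9 and NDUFC2 were on average highest in line 2 and lowest in line 4. NDUFB9, a membrane arm subunit of complex I, was at 118, 93.5, 97.1 and 134 CPM in line 2 (AAVS pool without and with IL4, then CREBBP pool without and with IL4) and at 29.0, 35.7, 44.9 and 44.5 CPM in line 4. Lines 1 and 3 lay in between, from 47.7 to 76 CPM. The log2 difference to the other lines was 1.18 (SE 0.17, adjusted p = 1.23e-04) in line 2 and -1.13 (SE 0.20, adjusted p = 0.00109) in line 4. NDUFC2 was at 49.5, 42.9, 47.8 and 70.2 CPM in the 4 conditions of line 2 and at 16.4, 18.2, 19.7 and 18.5 CPM in line 4. The values of line 4 were below those of every other library, and the log2 difference was 0.92 (SE 0.21, adjusted p = 0.00315) in line 2 and -1.33 (SE 0.23, adjusted p = 0.00115) in line 4.

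NDUFS5 was at 20.1, 19.8, 22.7 and 68.7 CPM in the 4 conditions of line 2, highest in the library rich in short transcripts, and between 9.59 and 28.6 CPM in the other lines, with a log2 difference of 1.31 (SE 0.33, adjusted p = 0.00759). Without CREBBP IL4 the difference was 0.67 and did not pass (adjusted p = 0.0833). NDUFB7 was at 9.79, 11.4, 17.4 and 15.0 CPM in line 4, and the log2 difference was -1.37 (SE 0.33, adjusted p = 0.00689). AAVS IL4 of line 3 was as low, at 11 CPM. The other members that fell in line 4 were NDUFA6, NDUFA11, NDUFA13, NDUFB10, NDUFB11, NDUFV3, COX4I1, COX5B, COX6A1 and COX8A, with log2 differences from -0.98 to -0.65, and the others that rose in line 2 were ATP5F1C, UQCRFS1, NDUFV1 and NDUFV3, from 0.53 to 0.76. Without the 2 libraries rich in short transcripts, 14 members passed in line 4, 13 of them lower and 1 higher, against 26.5% of all genes in either direction, and 9 passed in line 2, 5 higher and 4 lower, against 24.2%. The 9 include 5 of the 7 that passed in line 2 with all libraries.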

How the data were processed

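The authors depleted ribosomal RNA, sequenced paired-end reads of 151 bases, trimmed them with Cutadapt 2.3, checked them with FastQC 0.11.8, mapped them to GRCh38 with STAR 2.7.8a and estimated counts per gene with RSEM 1.3.3 (versions from the submitters' processing notes). What the authors deposited are these estimated counts, in whole numbers and not normalized, with 62714 genes in each of 16 libraries. The RNA input per library is 50 ng in the labels.

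All later steps were run here in R 4.3.3 with edgeR 4.0.16 and DESeq2 1.42.0, and in Python 3.11.15. CPM is the count over the library total. Genes kept by filterByExpr entered edgeR's quasi-likelihood test after TMM scaling, with a term for the line, and p-values, which are two-sided, were adjusted by Benjamini-Hochberg over all genes tested. The difference between IL4 responses was fitted on 16 libraries with a term for each pool, and the lines with condition as a term. Changes within a line are differences of log2 TMM-scaled CPM. Transcript lengths come from GENCODE release 44, on which all 76 members were found.

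The members, the lists and the alternatives were chosen with earlier results of these data known. Named are the members with the highest and lowest level of each complex, those that passed, otherwise the 3 with the largest change in each direction and 1 sign in 4 lines, up to 3 per direction for lines, and the catalytic or landmark subunits, of which one is not reported here.

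The line numbers pair the libraries, since these come from the same cell line. Deviations from group means correlated within lines with medians of 0.409, 0.685, 0.227 and 0.596 in lines 1 to 4, and -0.0782, in line 3, was the lowest. Within a group no library was a copy of another, the lowest chi-square per degree of freedom being 72.0. Libraries of different groups, among them those of the same line, were not compared by this measure.

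Tested on simulated data with 200 changed genes, the edgeR test recovered 0% of 2-fold and 45% of 4-fold changes for IL4 in AAVS pools (19439 genes), 33% and 71% for IL4 in CREBBP pools (17433), 28% and 72% for CREBBP against AAVS at baseline (18151), 0% and 36% with IL4 (18621) and 2% and 21% for the difference in response (21031), with 3, 11, 11, 5 and 5 unchanged genes called.

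The alternatives were median-of-ratios or upper-quartile factors, no filter or a minimum of 10 counts in all libraries, a fit without the block, each line or condition left out, the DESeq2 Wald test and 1 fit of all 16 libraries. Levels and promoters were also computed with joined exons and with the longer window. Leaving out the libraries rich in short transcripts, and joined exons for shares and ratios of levels, were added after seeing the data.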

Additional observations from a re-analysis of the deposited data

Results flagged for a closer look

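In 15 of 176 groups of 4 libraries (8.52%), 1 library stood far from the other 3. The cut-off sets about 1 in 20 apart for independent draws from 1 population. These groups share libraries and hold 1 library per line, so that the share cannot be set against that rate. In line 2, CREBBP IL4 stood far above the other 3 lines for ATP5F1E (179 CPM against 52.6 to 70.9), NDUFA1 (51.7 against 23.1 to 25.3), NDUFB9 (134 against 44.5 to 57.8), NDUFS5 (68.7 against 9.64 to 15.3) and UQCRH (177 against 64.6 to 79.3). This is a library rich in short transcripts. In the other library of that kind, CREBBP baseline of line 3, ATP5F1E reached 145 CPM against 57.8 to 68.4 in the other lines. NDUFS5 was also far higher in line 2 in AAVS baseline (20.1 CPM against 9.87 to 10.6) and in AAVS IL4 (19.8 against 9.59 to 10.7), which are not rich in short transcripts.

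Line 2 was also far above the other lines for NDUFS1 (181 CPM against 105 to 117) and NDUFV1 (115 against 63.8 to 72.2) in AAVS baseline, for COX5A in AAVS IL4 (108 against 64.8 to 69.6), and for the share of counts from mitochondrially encoded subunits in CREBBP baseline (3.87% against 1.88 to 2.18%). In line 3, AAVS IL4 was far below the other lines for ATP5F1B (325 CPM against 531 to 563), SDHD (27.6 against 53.7 to 58.6) and the summed complex V (1189 CPM against 1961 to 1980).

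ATP5F1C was lower with IL4 in all 4 lines of the AAVS pools and higher in all 4 lines of the CREBBP pools after TMM scaling. The difference between the responses was 0.82 on the log2 scale (SE 0.37), with an adjusted p of 0.365 and an unadjusted p of 0.0460 by edgeR's quasi-likelihood test, and so did not pass.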

How the results depend on the processing

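The condition comparisons kept a count of 0 members past the threshold under every alternative for IL4 in AAVS pools, IL4 in CREBBP pools and the difference in IL4 response. For CREBBP against AAVS at baseline the count was 1 with no filter and 5 with DESeq2, and from 0 to 9 with a line left out, the 9 without line 2. With IL4 it was 3 with upper-quartile factors, 40 with no filter, 48 with DESeq2 and 48 with all 16 libraries in 1 fit, and from 0 to 16 with a line left out, 16 without line 2 and 0 without line 1, 3 or 4. Leaving out the line whose library was rich in short transcripts, an alternative chosen after seeing the data, gave 16. The share of all genes called higher with IL4 moved too. It was 0.965% in the main fit, 7.85% with DESeq2, 8.26% with all 16 libraries in 1 fit and 4.31% without line 2. At baseline it was 1.36% with DESeq2 and 1.59% without line 2. That share is not given here for upper-quartile factors, no filter or the fits without line 1, 3 or 4. Counts of members under these alternatives are therefore no result about the members. The cause of these shifts was not tested, except that leaving out a line removes 2 of 8 libraries.

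The line is a replicate block in the fits of conditions, and the pairing comes from the cell lines. With no replicate block, 1 member passed between CREBBP and AAVS pools with IL4 in place of 5, 6 in line 4 in place of 13, where the block is the condition, and 3 for any difference among lines in place of 12. No other count moved by over 1.5 times.

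The median log2 fold change over members kept its sign in the condition comparisons except for IL4 in CREBBP pools, where it was -0.26 without line 2 and -0.043 without lines with a library rich in short transcripts, and ran from -0.26 to 0.38 with a line left out. With a line left out it ran from -0.40 to -0.19 for IL4 in AAVS pools, from 0.29 to 0.73 at baseline, from 0.86 to 1.09 with IL4 and from 0.092 to 0.61 for the difference in response.

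In the line comparisons, line 1 had 1 member past the threshold with no filter, 1 with at least 10 counts in every library, 2 with DESeq2 and 0 to 2 with a condition left out. Line 2 had 11 with median-of-ratios factors, 11 with no filter, 13 with at least 10 counts in every library, 12 with DESeq2 and 6 to 21 with a condition left out, 21 without CREBBP baseline. Line 3 had 1 with DESeq2 and 0 to 2 with a condition left out, and line 4 had 2 to 14, with 2 without AAVS baseline, 3 without CREBBP baseline and 6 without CREBBP IL4. Any difference was called for 19 members with at least 10 counts in every library, 20 with DESeq2 and 2 to 14 with a condition left out, 2 without AAVS baseline and 7 without CREBBP baseline. These counts are of members alone, and the share of all genes called under the same alternative is mostly not given here. In the main fit that share was 40.0% for any difference, and with DESeq2 it was 14.9% in line 1 and 7.21% in line 3. A count that moves is therefore no result about the members. The median over members turned without the 2 libraries rich in short transcripts, to 0.11 in line 1, -0.023 in line 2 and -0.048 in line 3. With a condition left out it ran from -0.19 to -0.014 in line 1, from -0.056 to 0.60 in line 2, from -0.19 to 0.38 in line 3 and from -0.49 to -0.26 in line 4, turning without CREBBP IL4 in line 2 and without CREBBP baseline in line 3.

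Of 648 alternatives for single members, 579 kept the side of the threshold and the direction, 23 lost a call, 40 gained one and 6 turned. All 6 are SDHC at baseline, with -0.072 with upper-quartile factors, -0.037 with no filter, -0.016 with a minimum of 10 counts in all libraries, and -0.043 without line 3, the line with a library rich in short transcripts. With a line left out it ran from -0.048 to 0.10.

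With 4 lines, 0% of the simulated 2-fold changes were recovered between CREBBP and AAVS pools with IL4. The changed genes were drawn at random from all genes tested, so that the rate at the members' levels was not measured. Members short of the threshold may still differ by that much. The lowest member count of 21 limits precision in the shallowest libraries.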
